A study of Homo sapiens with 6 samples.

Results

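In Hep3B, a human hepatocellular carcinoma cell line, each gene's level among the mRNAs held by ribosomes was set beside its level in the total mRNA of the same line. Such ribosome-nascent chain complex mRNA (RNC-mRNA) is polyadenylated mRNA recovered together with the ribosomes that are translating it. For each gene the ratio was log2 of (RNC-mRNA RPKM + 0.1) over (mRNA RPKM + 0.1), where RPKM is the read count scaled by gene-model length and library total. The comparison took in every gene that reached 1 RPKM in each fraction, 10825 of the 19089 genes with a read in any library of the study.

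The study sequenced both fractions of 3 hepatocellular carcinoma lines, Hep3B, HCCLM3 and MHCC97H, in 6 libraries. Each library was 1 pool of equal amounts from 3 cultures, so a fraction of a line had no replicates, no p-value could be computed, and intervals cover counting error only. Hep3B grew in MEM with 15% fetal bovine serum, sodium pyruvate, penicillin/streptomycin and ciprofloxacin; HCCLM3 and MHCC97H were grown in DMEM with 10% serum and the same antibiotics. The sample traits used here record no treatment, and both Hep3B libraries share medium, serum level and number of pooled cultures. Whether the cells of both fractions were handled alike before lysis was not tested. The names of the tables carry the letter A or C. Here A was taken to mean mRNA and C to mean RNC-mRNA, and if they were exchanged every ratio would change sign.

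An mRNA enters the RNC fraction when it carries at least a ribosome with its growing peptide. The fraction is therefore read as the translating part of a transcript pool, and it does not tell how many ribosomes each molecule carries. Hepatocytes and the tumour lines derived from them translate large amounts of secreted plasma protein at the endoplasmic reticulum, where the signal peptide of the nascent chain brings the ribosome to the membrane. mRNAs of ribosomal proteins and many translation factors start with a C followed by a run of pyrimidines, the terminal oligopyrimidine (TOP) tract, through which their recruitment to ribosomes is regulated.

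The Hep3B tables held 119086844 reads for mRNA and 147788269 for RNC-mRNA. At this depth the passing genes had a median of 4663 and 5101 reads, and the 95% counting interval of a log2 ratio reached a median of 0.06 to either side. For 125 of the 1042 genes at a ratio of at least 2 or at most 0.5 the interval reached back to that threshold. Hepatocyte markers were high in both fractions. ALB, serum albumin, stood at 4164 RPKM in mRNA and 4908 in RNC-mRNA. AFP, alpha-fetoprotein, stood at 109 and 132 RPKM, HNF4A, a central hepatocyte transcription factor, at 94.9 and 96.2, and the epithelial keratin KRT18 at 388 and 404. Among markers of other cell types, none of 8 erythroid markers reached 1 RPKM in either fraction, none of 12 endothelial ones did in mRNA and 1 (ENG) did in RNC-mRNA. Of 12 stellate cell and fibroblast markers PDGFRA and PDGFRB did, and of 12 leukocyte markers CD14, CD68 and LYZ did, genes that tumour cells can also express. The summed levels were 14.7 and 13.1 RPKM for the stellate list, 126 and 247 for the leukocyte list, 3.21 and 2.92 for the endothelial list and 0.829 and 0.496 for the erythroid list, in mRNA and RNC-mRNA.

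Most genes lay between a ratio of 0.5 and 2. The log2 ratio had a median of -0.03 and an SD across genes of 0.63, with quartiles at -0.45 and 0.34 and a full range of -4.53 to 3.18. A ratio of at least 2 was reached by 205 genes (1.89%), and 837 genes (7.73%) lay at a ratio of at most 0.5. At the outer ends 14 genes were at least 4 times as high in RNC-mRNA and 99 were at a ratio of at most 0.25. The low genes took 9.55% of the reads of mRNA and 3.10% of those of RNC-mRNA, and the high genes took 2.76% and 5.90%. Rescaling the libraries with TMM factors raised every ratio by about 0.24 on the log2 scale, moved the median to 0.19 and gave 561 high and 535 low genes, so list medians are given beside the median of all genes. Genes just past a ratio of 0.5, such as the transferrin receptor gene TFRC, left the low class under it (log2 ratio -1.09 as deposited and -0.85 with TMM factors). In a bulk culture, a transcript held by ribosomes in fewer cells and one held less in every cell cannot be told apart.

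**Figure D1:**
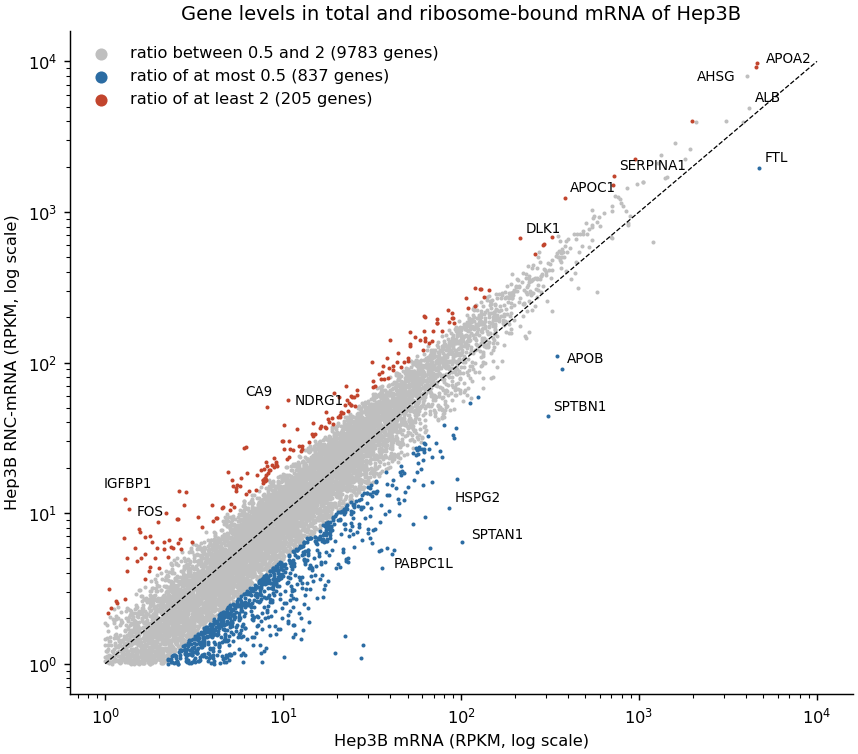
Level of each of the 10825 genes in Hep3B total mRNA (horizontal axis, RPKM, log scale) and in RNC-mRNA (vertical axis, RPKM, log scale), 1 point per gene. Most points follow the dashed line of equal levels, 837 lie at a ratio of at most 0.5 (blue) and 205 at a ratio of at least 2 (red), and the blue points spread further from the line than the red ones.

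The threshold of 1 RPKM left out 917 genes that reached it in mRNA and not in RNC-mRNA, and 117 that reached it in RNC-mRNA and not in mRNA. The former had a median log2 ratio of -1.24, and 587 of them lay at a ratio of at most 0.5; the latter had a median of 0.79, and 38 lay at a ratio of at least 2. Just inside the threshold stood ZNF678, a zinc finger gene with 2.25 RPKM in mRNA and 1.00 in RNC-mRNA, and IGFBPL1 with 1.09 and 1.00. Just outside stood PFKFB4, a regulator of glycolytic flux with 1.00 and 4.76 RPKM, and PAPLN, which encodes the matrix protein papilin, with 4.52 and 1.00.

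Among the 10 lowest ratios at 5 RPKM or more in each fraction, 6 belonged to large proteins of the cytoskeleton and matrix. SPTAN1, which encodes the spectrin alpha chain of the membrane skeleton, had the lowest of all 10, at 101 RPKM in mRNA and 6.40 in RNC-mRNA. Its log2 ratio was -3.95, and the 95% counting interval of the RPKM ratio, taken without the added 0.1, ran from -4.01 to -3.94. SPTBN1, the spectrin beta chain, was among the more abundant mRNAs of the line at 309 RPKM and stood at 44.1 RPKM in RNC-mRNA (log2 ratio -2.80). HSPG2, the basement membrane proteoglycan perlecan, went from 85.8 RPKM in mRNA to 10.9 in RNC-mRNA (-2.97). Both spectrin chains and perlecan were thus 0.0645 to 0.143 times as high among ribosome-bound mRNAs as in mRNA. FRAS1, a matrix protein of the epithelial basement membrane, stood at 42.1 and 5.69 RPKM (-2.87), COL27A1, a fibrillar collagen, at 53.5 and 8.53 (-2.63), and PLEC, the cytolinker plectin, at 35.4 and 5.71 (-2.61).

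The remaining 4 of the lowest 10 had shorter gene models. PABPC1L, a poly(A)-binding protein known from oocytes, stood at 67.0 RPKM in mRNA and 5.88 in RNC-mRNA (log2 ratio -3.49). LENG8 stood at 41.0 and 5.34 RPKM (-2.92), and CCNL2, a cyclin that takes part in splicing, at 62.8 and 9.49 (-2.71). AL627309.1, which no table used here pairs with a current gene, stood at 38.4 and 5.83 RPKM (-2.70). These 4 had gene models of 2223 to 5790 bases and log2 ratios in the range of the giants. Below 5 RPKM in RNC-mRNA, SPDYE2 had the lowest ratio of all (27.5 and 1.09 RPKM, log2 ratio -4.53) and GOLGA8A the next (28.1 and 1.33 RPKM, -4.31). Both belong to families of near-identical copies whose reads the counting may have split, so their values are uncertain; they are named after their values were seen.

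The highest ratios belonged to genes of varied function. CA9, carbonic anhydrase IX, a cell surface enzyme induced by low oxygen, stood at 8.06 RPKM in mRNA and 50.5 in RNC-mRNA. Its log2 ratio of 2.63 (interval 2.57 to 2.72) was the highest among genes at 5 RPKM or more in each fraction. NDRG1, a hypoxia and stress induced gene, followed at 10.6 and 56.7 RPKM (2.41). HFE2, which encodes hemojuvelin, the liver co-receptor that controls hepcidin, stood at 6.03 and 27.0 RPKM (2.14). FXYD1, a small regulator of the sodium pump, stood at 6.18 and 27.3 RPKM (2.12), and SLC51B, the beta subunit of a bile acid exporter, at 10.1 and 38.2 (1.91). Each of these 5 genes was thus more than 3 times as high among ribosome-bound mRNAs.

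The rest of the highest 10 were more abundant. CHCHD10, a protein of the mitochondrial intermembrane space, stood at 40.1 RPKM in mRNA and 140 in RNC-mRNA (log2 ratio 1.80). TM4SF5, a tetraspanin-like membrane protein of liver tumours, stood at 61.8 and 203 RPKM (1.71), and UNC93A, a membrane protein, at 19.2 and 63.1 (1.71). APOC1, a small apolipoprotein, stood at 383 and 1242 RPKM (1.70), and H1F0, the replication-independent linker histone, at 62.8 and 201 (1.68). All 10 had gene models of 689 to 3983 bases. In the other lines, which had no replicates either and grew in another medium, CA9 had log2 ratios of 0.07 in HCCLM3 and 0.84 in MHCC97H, and SPTAN1 had -3.19 and -3.13.

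**Figure D2:**
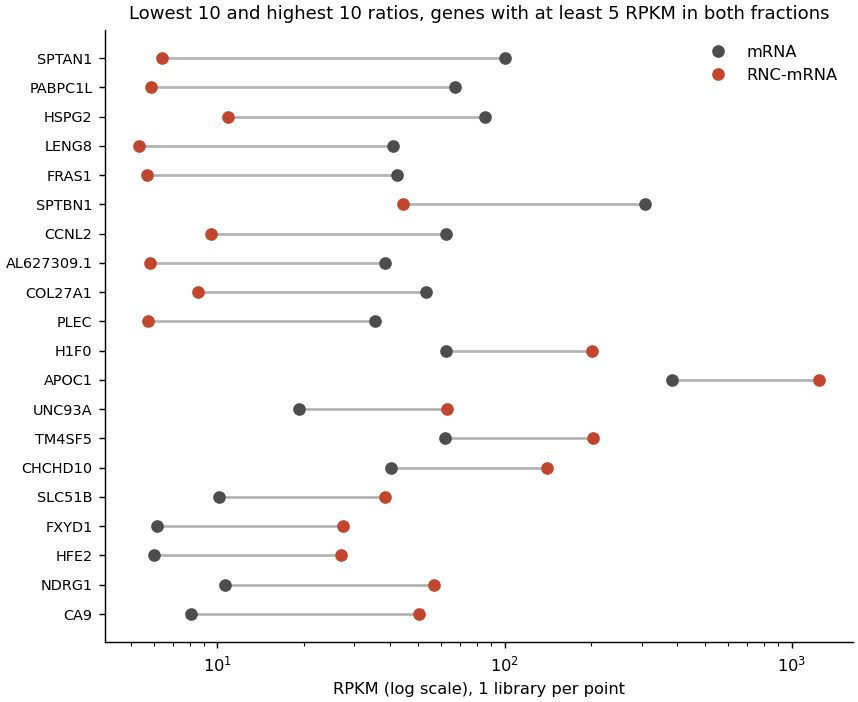
RPKM in Hep3B mRNA (grey) and RNC-mRNA (red) on a log axis for the 10 genes with the lowest and the 10 with the highest ratio among genes at 5 RPKM or more in each fraction, 1 library per point. SPTAN1 spans 101 to 6.40 RPKM at the top and CA9 8.06 to 50.5 RPKM at the bottom.

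The ratio went with the length of the gene model. The Spearman correlation of log2 ratio and length across the 10825 genes was -0.56; genes are not replicates, and both values come from the same 2 libraries. The median ratio was 0.46 in 428 genes of up to 1 kb and 0.47 in 698 genes of 1 to 1.5 kb. It was 0.17 in the 2620 genes of 2 to 3 kb, -0.26 in the 2513 of 4 to 6 kb, -0.80 in the 448 of 8 to 12 kb and -1.36 in the 76 above 12 kb. Of those longest 76 genes 55 (72.4%) lay at a ratio of at most 0.5, and above 6 kb no gene reached a ratio of 2. Genes at a ratio of at least 2 had a median model of 1792 bases, those at a ratio of at most 0.5 one of 5471, and all passing genes one of 3265. Model length divides the RPKM of both fractions alike, so this division cancels in the ratio, apart from the constant added to each RPKM. That covers the scaling only. Whether the 2 libraries recovered long transcripts equally well was not tested.

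The correlation with length was closer to 0 in the other lines. It was -0.05 in HCCLM3 and -0.11 in MHCC97H, over 10930 and 10987 genes. Their medians in genes above 12 kb were -0.15 and -0.15, and in genes of up to 1 kb 0.23 and 0.27. The difference between lines was not tested, since each line has 1 library per fraction, and line, medium and library cannot be told apart. Across the genes that passed in both lines of a pair, the Spearman correlation of the ratios was 0.24 for Hep3B and HCCLM3 (9732 genes), 0.27 for Hep3B and MHCC97H (9782 genes) and 0.92 for HCCLM3 and MHCC97H (10739 genes), the latter being related lines. Of the genes low in Hep3B 707 passed in both other lines, and 123 of these 707 lay at a ratio of at most 0.5 in HCCLM3 and 141 in MHCC97H. In the wider set of all genes that passed in a line, 270 of 10930 (2.47%) did in HCCLM3 and 295 of 10987 (2.68%) in MHCC97H.

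Level also went with the ratio. The Spearman correlation with the geometric mean of both RPKM values, which share these libraries with the ratio, was 0.40. Within genes of up to 2 kb the median ratio was 0.07 at a mean of 1 to 5 RPKM, 0.34 at 5 to 20, 0.51 at 20 to 100 and 0.58 above 100 RPKM. Within genes above 4 kb the medians were -0.50, -0.35, -0.20 and 0.04 in the same order of levels. Length therefore separated the genes at each level, and level within each class of length.

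**Figure D3:**
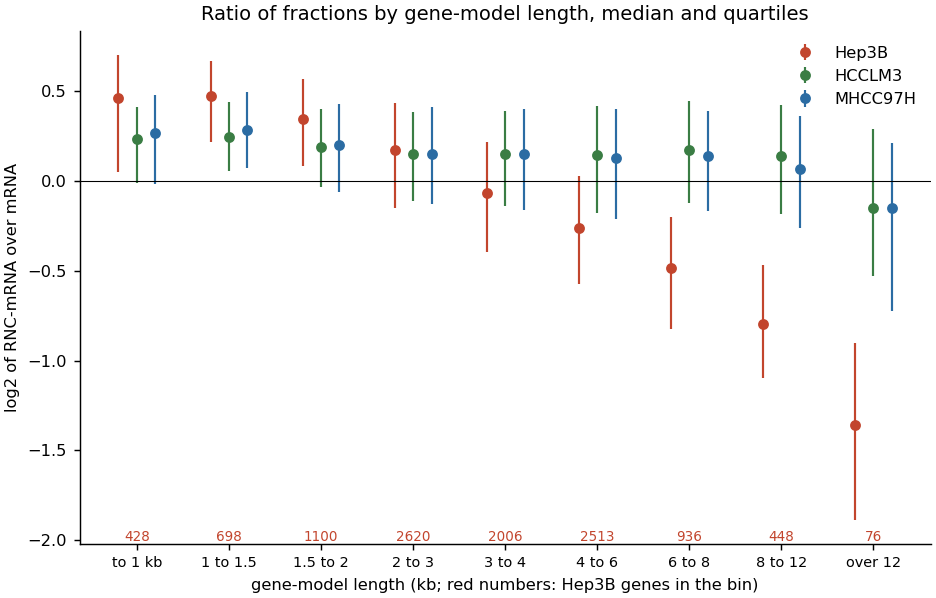
Median (point) and quartiles (bar) of the log2 ratio of RNC-mRNA over mRNA, in 9 classes of gene-model length in kb, for Hep3B (red), HCCLM3 (green) and MHCC97H (blue), with the number of Hep3B genes in red. The Hep3B medians go from 0.46 in the shortest class to -1.36 above 12 kb, and those of the other lines from 0.23 and 0.27 to -0.15 and -0.15.

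Because length went with the ratio, each list below is given with a length-centred median as well, the log2 ratio less the median of the 501 genes nearest in gene-model length. For the longest genes these are the 501 longest as a whole, so length is only partly removed there. On that scale 142 genes (1.31%) lay at 1 or above and 529 (4.89%) at -1 or below. The shares in each list stand beside those of all genes, 1.89% at a ratio of at least 2 and 7.73% at a ratio of at most 0.5. What part length has in a list's ratio was not tested beyond this centring.

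Genes for secreted plasma proteins stood among the high ratios. Of the 69 plasma carriers and other hepatocyte secreted proteins listed, 55 passed, 15 of them (27.3%) at a ratio of at least 2 and 3 (5.45%) at a ratio of at most 0.5. Their median was 0.43 beside -0.03 over all genes, and the length-centred median was 0.45. After length centring 9 of the 55 lay at 1 or above and 1 at -1 or below. IGFBP1, a liver-secreted carrier of insulin-like growth factors, stood at 1.29 RPKM in mRNA and 12.5 in RNC-mRNA, on 283 and 3244 reads. Its log2 ratio of 3.18 (interval 3.10 to 3.46) was the highest of all genes that passed. SERPINC1, the coagulation inhibitor antithrombin, stood at 1.28 and 6.88 RPKM (2.34), and A1BG, a plasma glycoprotein, at 22.4 and 69.5 (1.63). SERPINA1, alpha-1 antitrypsin, was abundant in both at 722 and 1742 RPKM (1.27), and TTR, the thyroxine carrier transthyretin, stood at 69.2 and 162 (1.23).

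High level did not go with a single ratio among the secreted proteins. ALB had a log2 ratio of 0.24 and TF, the iron carrier transferrin, 0.10, at 884 and 947 RPKM. AHSG, fetuin-A, stood at 4064 and 8019 RPKM (0.98). The 3 low members were CFI, a protease of the complement system, at 23.6 and 7.74 RPKM (-1.60), C5, a complement component, at 15.8 and 6.87 (-1.19), and F5, coagulation factor V, at 22.5 and 11.1 (-1.01). The list thus ran from -1.60 to 3.18, with 45 of 55 members above 0. C5 and F5 have gene models of 5462 and 7039 bases, and less the genes of like length their log2 ratios were -0.89 and -0.47, while CFI stood at -1.78.

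Apolipoproteins and the factors that load them with lipid held both ends of the range. Of 23 listed 17 passed, 8 (47.1%) at a ratio of at least 2 and 2 (11.8%) at a ratio of at most 0.5. Their median was 0.92 and the length-centred median 0.49. After length centring 2 of the 17 lay at 1 or above and 2 at -1 or below. APOA5, a regulator of triglycerides, stood at 2.76 RPKM in mRNA and 11.4 in RNC-mRNA (log2 ratio 2.01). APOC3, an inhibitor of lipoprotein lipase, stood at 73.6 and 195 RPKM (1.41), and APOA1, the main protein of high-density lipoprotein, at 712 and 1499.7 (1.07). The small apolipoproteins were thus higher among ribosome-bound mRNAs from the rarest to the most abundant. APOA2 stood at 4566 and 9197 RPKM (1.01); AL590714.1, at 4591 and 9691 RPKM, was the only gene above it in RNC-mRNA, and as the name matched no current gene its value is uncertain. APOB, the giant scaffold of low-density lipoprotein with a gene model of 14121 bases, went the other way at 367 RPKM in mRNA and 90.7 in RNC-mRNA (-2.01, or -1.16 less the genes of like length). LCAT, the enzyme that esterifies cholesterol on lipoproteins, was low with a short model of 1507 bases, at 4.71 and 1.41 RPKM (-1.68).

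The machinery that brings secreted proteins into the endoplasmic reticulum did not stand as high as its cargo. All 36 members of the signal recognition particle, translocon, signal peptidase and oligosaccharyltransferase list passed, 0 at either threshold, with a median of 0.22 and a length-centred median of 0.18. OSTC, an oligosaccharyltransferase subunit, had the highest ratio at 31.2 and 52.9 RPKM (0.76), and SEC61A2, a translocon channel subunit, the lowest at 2.48 and 1.21 (-0.98). Of 32 passing genes of endoplasmic reticulum folding and the unfolded protein response, FKBP2, a folding catalyst, was at a ratio of at least 2 (60.8 and 122 RPKM, 1.00) and UGGT1, the glycoprotein folding sensor, at a ratio of at most 0.5 (17.7 and 8.63 RPKM, -1.02). Their median was 0.14, and 0.06 less genes of like length.

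Liver metabolism followed the secreted proteins, with fewer extremes. Of 31 genes listed under cholesterol synthesis and sterol uptake 3 (9.68%) lay at a ratio of at least 2 and 1 at a ratio of at most 0.5. Their median was 0.48 and the length-centred median 0.42. Other lipid genes are part of this list, SCD, ACACA and LPIN1 among them. INSIG1, the sterol sensor that retains the SREBP complex, stood at 8.84 RPKM in mRNA and 20.1 in RNC-mRNA (log2 ratio 1.17). PMVK, a mevalonate pathway kinase, stood at 20.5 and 43.2 RPKM (1.07), and SCD, the fatty acid desaturase, at 135 and 271 (1.00). LPIN1, a phosphatidate phosphatase, was the low one at 3.18 and 1.09 RPKM (-1.46). Of 50 hepatocyte metabolism genes 29 passed, with a median of 0.34 and a centred one of 0.18. NAGS, which makes the activator of the urea cycle, stood at 2.60 and 13.99 RPKM (2.38), ARG1, the last enzyme of that cycle, at 2.30 and 6.68 (a ratio of 2.83), and FABP1, the liver fatty acid-binding protein, at 84.0 and 224 (1.41). ABCC2, the canalicular export pump, lay at a log2 ratio of -1.27, from 31.6 RPKM in mRNA.

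Hepatocyte transcription factors were spread widely around a median of 0.31 (0.25 centred), with 4 of 29 (13.8%) at a ratio of at least 2. At a ratio of at most 0.5 lay 2 (6.90%), a share near the 7.73% of all genes. CREB3L3, a membrane-bound factor of liver lipid metabolism, stood at 6.25 and 18.6 RPKM (log2 ratio 1.56), and NR0B2, a bile acid responsive repressor, at 62.0 and 162 (1.38). ONECUT1, a factor of liver development, stood at 28.8 and 9.29 RPKM (-1.62), and PROX1, a regulator of hepatoblast growth, at 24.6 and 9.25 (-1.40). Oncofetal and progenitor genes had a median of -0.07 over 20 genes. It lay above 0 after TMM rescaling (0.17, beside 0.19 over all genes) and after length centring (0.09). Within the oncofetal list DLK1, a fetal liver surface protein, stood at 215 and 672 RPKM (1.64). SALL4, a stem cell transcription factor re-expressed in liver tumours, stood at 8.33 and 1.78 (-2.16).

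**Figure D4:**
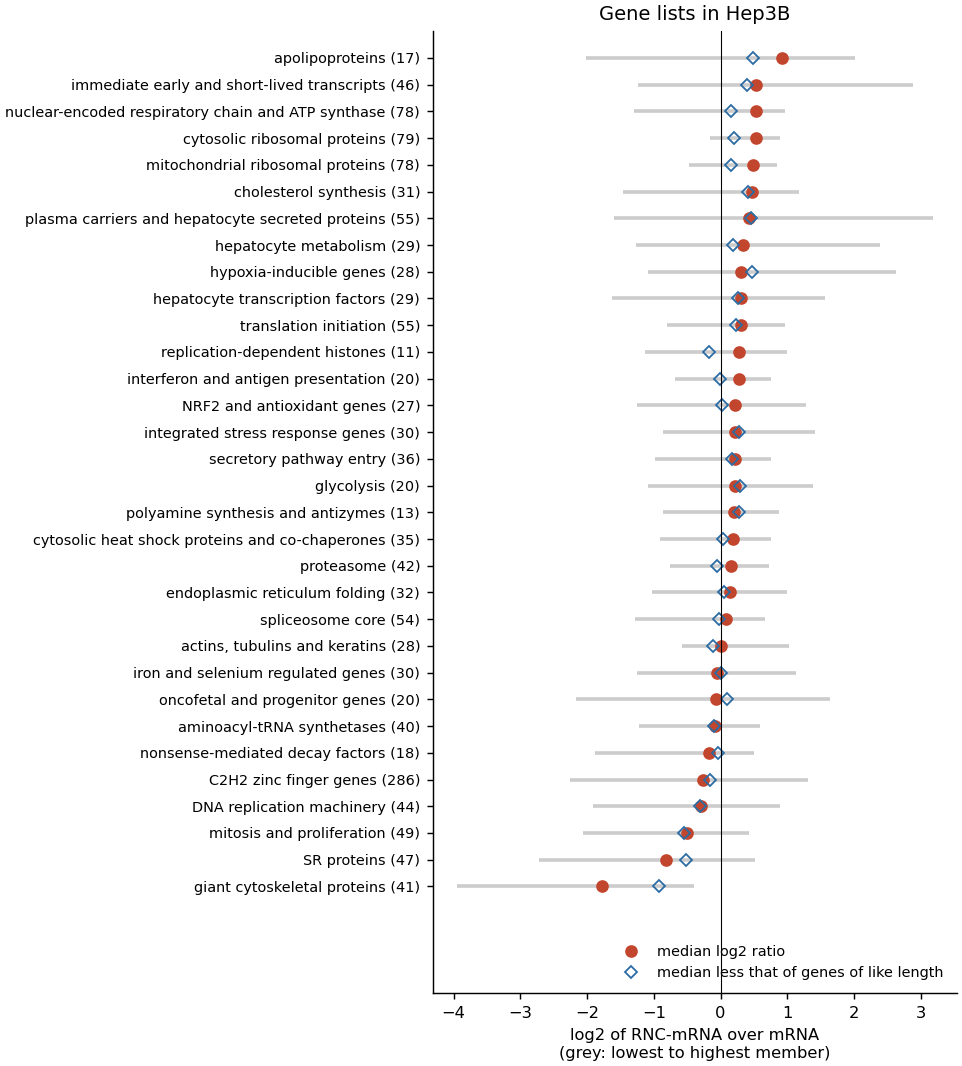
Median log2 ratio of RNC-mRNA over mRNA in Hep3B (red point), the same less genes of like length (open diamond) and the range of the members (grey), for the lists reported here with at least 10 passing genes, whose number is in parentheses. Apolipoproteins lie highest with a median of 0.92, and giant cytoskeletal, matrix and scaffold proteins lowest with -1.78; the diamonds lie closer to 0 in both.

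Cytosolic ribosomal protein genes lay above the middle in a narrow range. All 79 cytosolic ribosomal protein genes passed and 78 lay above 0, with a median of 0.52 and a range of -0.16 to 0.89; 0 reached either threshold. Their gene models are short, and less genes of like length the median was 0.21. FAU, which encodes a ribosomal protein fused to a ubiquitin-like one, had the highest ratio at 237 RPKM in mRNA and 438 in RNC-mRNA (0.89). RPLP1, a protein of the ribosomal stalk, was the exception at 438 and 391 RPKM (-0.16), a direction that turned after TMM rescaling (0.08). Ribosomal proteins have many near-identical pseudogenes, so reads shared with copies are uncertain.

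Translation factors had a wider spread and a median of 0.31 over 55 genes (0.22 centred), with 0 at either threshold. EIF1, which guards start codon choice, stood at 116 and 225 RPKM (log2 ratio 0.96), and EEF2, the translocation factor of elongation, at 1601 and 2863 (0.84). At the low end stood the large initiation scaffolds EIF4G3, at 16.4 and 9.33 RPKM (-0.81), and EIF4G1, at 170 and 102 (-0.74). The 78 passing mitochondrial ribosomal proteins had a median of 0.49 (0.16 centred) and the 78 nuclear-encoded genes of the respiratory chain and ATP synthase one of 0.53 (0.16 centred), 75 of them above 0. SDHA, the flavoprotein of complex II, stood apart from these at 65.8 and 26.7 RPKM (-1.30), and it has close pseudogene copies, so its counts are uncertain. Aminoacyl-tRNA synthetases had a median of -0.08 (0.16 after TMM rescaling, beside 0.19 over all genes). The mitochondrial enzymes LARS2 and AARS2 were lowest at -1.21 and -1.07.

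To show how the starts of these mRNAs read, the annotated start sites of a few ribosomal protein and translation factor genes from both ends of their lists are printed as 30 bases, the 10 before the start and the first 20 of the transcript. The windows are from RefSeq on GRCh38.p14 and are given 5' to 3' on the gene's strand, with capitals marking a C at the start position and the unbroken run of C or T that follows, where that run has at least 4 bases. This build differs from the hg19 of the submitters' processing notes, and genes were joined by symbol. FAU is at chr11:65122115-65122144 (minus strand), RPS9 at chr19:54200848-54200877 (plus), RPL3 at chr22:39319604-39319633 (minus), RPSA at chr3:39406710-39406739 (plus) and RPLP1 at chr15:69452808-69452837 (plus). EEF2 is at chr19:3985444-3985473 (minus), EIF1 at chr17:41688875-41688904 (plus), EIF4G1 at chr3:184314596-184314625 (plus) and EIF4G3 at chr1:21111364-21111393 (minus).
FAU: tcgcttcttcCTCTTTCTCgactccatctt
RPS9: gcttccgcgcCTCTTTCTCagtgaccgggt
RPL3: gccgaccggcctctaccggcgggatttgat
RPSA: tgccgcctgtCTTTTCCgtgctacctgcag
RPLP1: ggcgcgagagCCCCTTTCCTCagctgccgc
EEF2: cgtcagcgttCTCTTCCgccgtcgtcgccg
EIF1: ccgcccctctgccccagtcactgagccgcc
EIF4G1: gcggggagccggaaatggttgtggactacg
EIF4G3: ttctttccagcaatcccacagagtattgat

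FAU and RPS9, with the highest ratios of their list, carried such a tract at the annotated start, and so did RPSA and RPLP1, with the lowest. RPL3, also at the high end, starts with a C whose run is too short to count. Of the translation factors printed, EEF2 carried the tract, and EIF1, EIF4G1 and EIF4G3 did not. The tract was searched on the gene's strand at the annotated start position alone, and 1104 of 27305 RefSeq promoters (4.04%) held it. Among genes that passed, 43 of 63 ribosomal proteins with a promoter entry (68.3%), 13 of 45 translation factors (28.9%) and 500 of 8743 genes in all (5.72%) did. Genes with the tract had a median log2 ratio of 0.21 and those without it -0.05, or 0.11 and -0.005 less genes of like length. Within the ribosomal proteins the medians were 0.52 with and 0.58 without it (0.26 and 0.19 centred), and within the translation factors 0.48 and 0.16 (0.27 and 0.16 centred). A match describes the letters at an annotated start and no more.

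Immediate early and other short-lived transcripts held a larger share of high ratios than all genes did. Of 59 listed 46 passed, 14 (30.4%) at a ratio of at least 2 and 1 at a ratio of at most 0.5. Their median was 0.54 and the centred one 0.40, and after centring 9 of the 46 lay at 1 or above. The other lines were alike in this, with list medians of 0.62 in HCCLM3 and 0.56 in MHCC97H. There 10 of 53 and 11 of 52 members lay at a ratio of at least 2, beside 0.842% and 0.464% of all genes. FOS, an immediate early transcription factor, stood at 1.36 RPKM in mRNA and 10.7 in RNC-mRNA on 390 and 3623 reads, a log2 ratio of 2.88 (interval 2.82 to 3.13). Its log2 ratios in the other lines lay within or near that interval, at 2.80 in HCCLM3 and 2.93 in MHCC97H. GADD45G and GADD45A, stress sensors of the growth arrest family, stood at 2.19 and 9.99 RPKM (2.14) and at 11.96 and 36.0 (1.58). SGK1, a serum-induced kinase, was the low one at 3.53 and 1.44 RPKM (-1.24), and the YAP target genes CTGF and CYR61 lay at -0.60 and -0.38.

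Of 30 integrated stress response genes 3 lay at a ratio of at least 2 (10.0%) and 0 at a ratio of at most 0.5, with a median of 0.22 (0.28 centred). TRIB3, an ATF4-induced pseudokinase, stood at 55.1 and 147 RPKM (log2 ratio 1.42), DDIT3, the transcription factor CHOP, at 20.9 and 44.6 (1.09), and DDIT4, an inhibitor of mTORC1 signalling, at 91.2 and 184 (1.01). A list of 34 hypoxia-inducible genes was added after CA9 and NDRG1 had been seen at the top. Of its 28 passing members 4 (14.3%) lay at a ratio of at least 2, with a median of 0.31 (0.47 centred). Besides these genes it held ALDOC, a glycolytic aldolase, at 5.74 and 15.2 RPKM (1.39). PFKFB3, a regulator of glycolysis, was its low member at 17.4 and 8.14 RPKM (-1.09).

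Iron storage went against the abundant secreted mRNAs. FTL, the ferritin light chain, had the highest level of all in mRNA, 4705 RPKM, and stood at 1970 in RNC-mRNA (log2 ratio -1.26). FTH1, the heavy chain, stood at 1196 and 633 RPKM (-0.92), and TFRC, the transferrin receptor, at 61.9 and 29.1 (-1.09). Both ferritin genes have pseudogene copies, so their counts are uncertain. Ferritin chains carry iron-responsive elements before the coding region, through which iron regulatory proteins block translation, and TFRC carries them after it. FTL and FTH1 had gene models of 878 and 1229 bases, a length at which the median gene was above 0, and both were lower still in HCCLM3 (-1.70 and -1.41) and MHCC97H (-1.85 and -1.39). TFRC was at 0.10 and 0.03 there. The list of iron and selenium regulated genes had a median of -0.05. It lay above 0 after length centring (0.01), upper quartile scaling (0.004) and TMM rescaling (0.19). With upper quartile scaling and TMM rescaling all genes had medians of 0.02 and 0.19. The iron and selenium list also held the selenoproteins SEPP1, at 24.0 and 52.4 RPKM (1.12), MSRB1, at 32.1 and 68.5 (1.09), and GPX4, at 545 and 1028 (0.91).

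Splicing regulators were low as a list. Of 47 passing SR proteins, CLK kinases and other splicing regulators, many of which are known to make transcripts with a premature stop, 16 (34.0%) lay at a ratio of at most 0.5 and 0 at a ratio of at least 2. Their median was -0.81, and -0.52 less genes of like length, with 40 of 47 below 0. After length centring 10 of the 47 lay at -1 or below. CCNL2 was lowest, followed by NKTR, a cyclophilin of nuclear speckles, at 11.3 RPKM in mRNA and 2.37 in RNC-mRNA (-2.20). AKAP9, also in the list, is a kinase anchor rather than a splicing regulator and has a model of 12475 bases. It stood at 5.27 and 1.18 RPKM (-2.07, or -1.21 less genes of like length). The small SR proteins SRSF9, at 119 and 171 RPKM (0.52), and SRSF3, at 73.9 and 99.8 (0.43), were on the other side of 0. The core of the spliceosome had a median of 0.09 (-0.02 centred). At a ratio of at most 0.5 lay 4 of 54 (7.41%), a share near the 7.73% of all genes. Among these 4 were SF3B1, which recognises the branch point, at 62.1 and 25.5 RPKM (-1.28), and DHX15, a helicase that takes spliceosomes apart, at 61.9 and 26.8 (-1.20).

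Genes of mitosis and proliferation were low as a list. Of 49 that passed 13 (26.5%) lay at a ratio of at most 0.5 and 0 at a ratio of at least 2, with a median of -0.50. Centring on length left that median at -0.54, with 6 of the 49 genes at -1 or below. ASPM, a spindle pole protein, stood at 16.5 RPKM in mRNA and 3.87 in RNC-mRNA (log2 ratio -2.06), CENPF, a kinetochore protein, at 32.6 and 7.81 (-2.05), and MKI67, the proliferation antigen Ki-67, at 21.6 and 5.76 (-1.89). All 3 have gene models above 10 kb, and less genes of like length they stood at -1.21, -1.19 and -1.03. The highest were short: CDKN3, a phosphatase of cyclin-dependent kinases, at 0.43, the centromere histone CENPA at 0.39 and PTTG1, the securin, at 0.37. In HCCLM3 and MHCC97H the same list had medians of 0.10 and 0.13, beside 0.17 and 0.16 over all their genes.

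The DNA replication list had a median of -0.29 (-0.31 centred), with 4 of 44 (9.09%) at a ratio of at most 0.5, a share near the 7.73% of all genes. POLE, the catalytic subunit of the leading strand polymerase, stood at 37.4 and 9.84 RPKM (log2 ratio -1.92), and POLA1, that of the polymerase that extends primers, at 4.17 and 1.57 (-1.36). POLD4, a small polymerase subunit, stood at 54.3 and 101 RPKM (0.89), and CDT1, an origin licensing factor, at 35.1 and 61.6 (0.81). C2H2 zinc finger genes, the largest list, had 286 passing members of 468, with 33 (11.5%) at a ratio of at most 0.5 and 3 (1.05%) at a ratio of at least 2. Their median was -0.26 (-0.16 centred), and with a minimum of 5 RPKM it was 0.05, beside 0.12 over all genes. Since many zinc finger genes are near-identical copies of one another, their single counts are uncertain.

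The list of giant cytoskeletal, matrix and scaffold proteins was chosen for long transcripts, so its place is not independent of the order by length. Of 62 listed 41 passed, 35 (85.4%) at a ratio of at most 0.5, with a median of -1.78 and a centred one of -0.92. After centring 16 of the 41 lay at -1 or below. In HCCLM3 and MHCC97H, where length hardly went with the ratio, the list had medians of -0.61 and -0.74 (-0.72 and -0.79 centred), with 13 of 38 and 13 of 39 members at a ratio of at most 0.5. UBR4, a giant ubiquitin ligase with a model of 15945 bases, stood at 35.9 and 4.35 RPKM (log2 ratio -3.02), beside -0.44 in HCCLM3 and -0.67 in MHCC97H. The highest member was MYH14, a nonmuscle myosin with a model of 6910 bases, at 42.8 and 32.4 RPKM (-0.40). For the longest genes the centring takes the median of the 501 longest as a whole, so it removes less than the order by length within them.

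**Figure D5:**
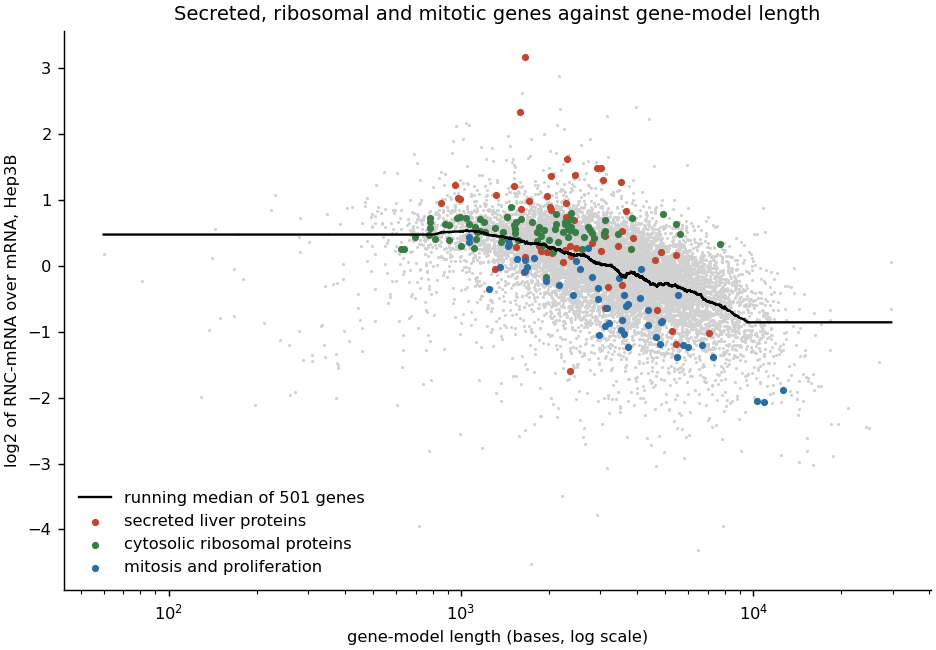
Log2 ratio of RNC-mRNA over mRNA in Hep3B (vertical axis) against gene-model length in bases (horizontal axis, log scale), 1 point per gene, with the running median of 501 genes (line), secreted liver proteins (red), cytosolic ribosomal proteins (green) and mitosis and proliferation genes (blue). Ribosomal proteins lie in a narrow band between -0.16 and 0.89, secreted proteins reach 3.18, and 40 of 49 mitotic genes lie below 0.

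By gene type, the 10496 protein-coding genes set the picture, with 783 (7.46%) at a ratio of at most 0.5. Of 20 transcribed pseudogenes 7 (35.0%) lay there, of 27 long noncoding RNAs 3 (11.1%), and of 279 names that matched no current or older symbol 43 (15.4%). The median log2 ratio was -0.03 in protein-coding genes, -0.32 in these pseudogenes, 0.16 in the long noncoding RNAs and 0.01 in the unmatched names. Among genes that reached 1 RPKM in mRNA alone, SLC16A8, a lactate transporter of the retinal pigment epithelium, stood at 4.94 RPKM and 0.105 in RNC-mRNA, on 1231 and 31 reads. SPATC1 stood at 2.45 and 0.0423 RPKM and SPDYE1 at 4.24 and 0.180, which made them 17.9 and 15.5 times as high in mRNA on the scale with 0.1 added. SPDYE1 is of the same family as SPDYE2, so its value is uncertain too. SCT, which encodes the hormone secretin, had 81 reads in mRNA and 0 in RNC-mRNA, at least 32.0-fold lower when 3 reads are taken as the floor of that library. AC008914.1 had 10 and 0 reads, at least 3.95-fold lower by the same floor.

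Among genes that reached 1 RPKM in RNC-mRNA alone, the hormone EPO, erythropoietin, known to be made by Hep3B under low oxygen, had 48 reads in mRNA and 886 in RNC-mRNA. That made 0.272 and 4.24 RPKM, a log2 ratio of 3.54. LGI4, a secreted glial protein, stood at 0.354 and 5.79 RPKM (3.70), and CD4, a T cell co-receptor, at 0.111 and 1.59 RPKM. CIDEC, a lipid droplet protein, stood at 0.714 and 3.89 RPKM (2.29). These genes were thus seen above 1 RPKM among ribosome-bound mRNAs only, on 779 to 2631 reads there; they and the genes of the paragraph before were picked by their ratio.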

How the data were processed

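Polyadenylated total mRNA and RNC-mRNA of Hep3B were compared, with HCCLM3 and MHCC97H set beside them. The table the authors deposited for a library gives each gene a whole-number read count and an RPKM; a gene without reads has no line and was taken as 0. The deposited RPKM values were the counts scaled by gene-model length and by an authors' total (132786306 reads for Hep3B mRNA and 157181586 for RNC-mRNA), both recovered from the tables; recovered lengths lay within 8.32e-09 of whole numbers. Libraries were made with an NEBNext mRNA kit, per the labels' protocols. The submitters' processing notes name edgeR and hg19 without a role; the aligner, the counter and how it treated strand, copies and overlaps were not given in the sources used here.

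Ratios were computed on RPKM with 0.1 added, for genes at 1 RPKM or more in each fraction, which understates the change of low genes. Genes at a ratio of 2 or more and of 0.5 or less were counted, with no test. Counting intervals are 95% exact binomial (Clopper-Pearson) intervals on the reads and cover counting error only; PCR copies cannot be told from separate molecules. The script's counts were tested on simulated data. The members and the gene lists were chosen with earlier results of these data known; the hypoxia list, the length centring and the genes at 1 RPKM in 1 fraction alone were chosen after seeing the values. Named genes were the 10 highest and 10 lowest ratios at 5 RPKM or more, the 10 highest levels, up to 3 at each end of every list, genes with no reads in a fraction and cell type markers, without the Y chromosome; GOLGA8A and SPDYE2 were added. A few named genes and a list are not reported here. Of the gene names 18090 matched a current or older RefSeq symbol. Alternatives were other pseudocounts, filters, thresholds and scalings (TMM with edgeR 4.0.16). Python 3.11.15, pandas 2.3.3, scipy 1.17.1 and R 4.3.3 were used.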

Additional observations from a re-analysis of the deposited data

Results flagged for a closer look

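In 4 lists the Hep3B median lay at least 0.25 above that of all genes of the line, while the median lay at least 0.25 below it in both other lines. The difference between lines was not tested, as each line has 1 library per fraction, and line and medium cannot be told apart. For plasma carriers and hepatocyte secreted proteins the median log2 ratio was 0.43 in Hep3B, -0.49 in HCCLM3 (18 genes) and -0.43 in MHCC97H (22 genes). Over the 15 members that passed in all lines the medians were 0.27, -0.60 and -0.46. For apolipoproteins the medians were 0.92, -0.40 and -0.35, and over the 9 shared members 0.59, -0.40 and -0.44. For hepatocyte metabolism they were 0.34, -0.21 and -0.16, and over the 12 shared members 0.31, -0.26 and -0.30. For the list of cholesterol synthesis and sterol uptake, which holds other lipid genes too and whose 31 members passed in each line, they were 0.48, -0.13 and -0.12. The medians of all genes were -0.03, 0.17 and 0.16. Many of the secreted genes are far lower in level in the other lines: TF stood at 884 RPKM in Hep3B mRNA and had a log2 ratio of 0.10 there, against -1.08 (HCCLM3) and -0.94 (MHCC97H). What part level has in these differences was not tested.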

How the results depend on the processing

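No paired analysis was possible because the Hep3B comparison is 1 library against 1, which leaves no residual degrees of freedom; a block by line would describe the 3 lines together and not Hep3B. The main counts were 837 genes at a ratio of at most 0.5 and 205 at a ratio of at least 2. The low count was 509 with a pseudocount of 1 RPKM, 223 with a minimum of 5 RPKM, 2380 with no filter, 535 with TMM factors, 2049 and 230 with ratio thresholds of 1.5 and 3, and 529 after length centring. The high count was 561 with TMM factors and 1211 and 37 with thresholds of 1.5 and 3. The median of all genes, -0.03, became 0.12 with a minimum of 5 RPKM, -0.14 with no filter, -0.10 when scaled by the sum of the gene table and 0.19 with TMM factors. The Spearman correlation with length, -0.56, was -0.34 with no filter and -0.59 to -0.55 in the other alternatives. The causes of these changes were not tested, except that thresholds and filters change which genes are counted by construction. The split of high against low calls was near even with TMM factors alone. No list median of the secreted, ribosomal, splicing regulator or mitosis groups changed sign under any alternative. Of the lists reported here, the median did so for oncofetal genes, aminoacyl-tRNA synthetases, iron and nonsense-mediated decay genes (the latter -0.17, and 0.07) with TMM factors; C2H2 zinc finger genes and the stellate cell list (-0.56, and 0.29) with a minimum of 5 RPKM; histones (-0.03), actins (-0.01) and interferon genes (-0.14) and the leukocyte list (0.83, and -0.08) with no filter; actins also with gene-table scaling (-0.05) and iron genes with the upper quartile; and, after length centring, oncofetal, iron, spliceosome, proteasome (-0.05), histone (-0.17), actin (-0.12) and interferon (-0.002) genes. Depth limits the rarest passing genes, which had 20 and 21 reads in mRNA and RNC-mRNA.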

Other observations

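Several further groups lay near the middle in Hep3B. The 42 passing proteasome genes had a median log2 ratio of 0.16, which fell on the other side of 0 after length centring (-0.05), and 0 of them reached either threshold. PSMF1, a proteasome inhibitor, stood at 26.7 RPKM in mRNA and 44.1 in RNC-mRNA (0.72), and PSME4, a large proteasome activator, at 14.2 and 8.33 (-0.76). The 35 cytosolic heat shock proteins and co-chaperones had a median of 0.18 (0.03 centred), again with 0 at either threshold; HSPB1, a small chaperone, stood at 251 and 424 RPKM (0.76). Of 27 NRF2 and antioxidant genes (median 0.22, 0.03 centred), OSGIN1, an oxidative stress induced gene, stood at 9.12 and 21.8 RPKM (1.25) and AKR1B10, an aldo-keto reductase of liver tumours, at 2.56 and 6.35 (1.28). The 13 polyamine genes had a median of 0.20 (0.27 centred), with the acetyltransferase SAT1 highest at 82.7 and 152 RPKM (0.88) and MAT2A, which makes S-adenosylmethionine, lowest at 78.3 and 42.9 (-0.87).

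Among actins, tubulins and keratins (median 0.01, -0.05 with gene-table scaling) the actins differed from each other: ACTG1 stood at 1982 and 4029.5 RPKM (1.02) and ACTB at 3089.6 and 4016 (0.38). Their coding sequences are nearly identical, so reads shared between them are uncertain. IGF2, a fetal growth factor with a model of 5585 bases, stood at 3826 and 3975 RPKM, a log2 ratio of 0.06, and 0.38 less genes of like length. Of 53 replication-dependent histones, whose main transcripts have no poly(A) tail, 11 passed (median 0.28, -0.17 centred), with HIST1H4C at 7.22 and 3.23 RPKM (-1.13) and HIST1H1C at 3.69 and 7.47 (1.00).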
